A study of Bos taurus with 8 samples.

Results

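The myogenic regulatory factors are 4 basic helix-loop-helix transcription factors, MYOD1, MYF5, MYF6 and MYOG, and the list followed here adds the paired-box factors PAX3 and PAX7 and the MADS-box factors MEF2A, MEF2C and MEF2D, 9 genes in all. A gene was taken as measured where the RefSeq transcript given for a non-control probe belonged to it, and where that probe stood above background in at least 4 of 16 channel readings. MYOD1, MYF5, MYF6, MYOG and MEF2A met this rule, 5 of the 9, with 1 probe each printed at 2 spots of every array. No probe was matched to PAX3, MEF2C or MEF2D, and PAX7 was not in the gene table used for matching, so these 4 genes are not analysed here. In the whole series 6693 named genes had a probe above background.

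In vertebrate muscle PAX3 and PAX7 mark precursors and satellite cells, the resident stem cells that lie along the fibres. MYF5 and MYOD1 commit such cells to the muscle fate, MYOG drives their exit from the cell cycle and their differentiation, and MYF6, also called MRF4, is the family member best known from mature fibres. These factors bind E-boxes as dimers with E proteins, while MEF2 factors bind AT-rich sites and act with them on genes of the contractile apparatus, the neuromuscular junction and energy metabolism. Adult fibre nuclei contain MEF2 proteins, which kinases and class IIa histone deacetylases switch on and off.

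Total RNA came from the semitendinosus, a hindlimb muscle, of 12 bulls aged 15 months. There were 4 Hereford bulls, 4 Holstein-Friesian bulls and 4 Limousin bulls, and the series sets the first 2 breeds as well marbled against lean Limousin. Each of 8 arrays carried 1 bull of a marbled breed and 1 Limousin bull in 2 colours, and each Limousin bull served on 2 arrays, once against Hereford and once against Holstein-Friesian. The Hereford slide had the breed in Cy5 and Limousin in Cy3, and the Holstein-Friesian slide had the dyes the other way round, so that within each breed comparison breed, dye and slide cannot be told apart. No treatment or genotype beyond breed was given, and each RNA came from 1 animal. Values below are log2 ratios of the breed over Limousin on an array, after background correction and loess normalization, and levels are log2 channel intensities, which can be set against each other only for the same probe.

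Of 21475 non-control probes, 17061 passed the filter on dim probes. On the Hereford slide the median intensity above local background was 97.25 to 139.75 for Hereford in Cy5, against 63.5 to 88 for Limousin in Cy3. On the Holstein-Friesian slide it was 30.5 to 46.75 for Holstein-Friesian in Cy3, against 97 to 117.5 for Limousin in Cy5, so the dimmer channel was Cy3 on both. No spot was saturated. The defining markers of the labelled tissue were present, and 6 measured myofibre genes averaged log2 levels of 16.28 to 16.45 in Hereford and 16.4 to 16.67 in Holstein-Friesian, against 16.05 to 16.51 in Limousin. In such whole-muscle RNA, fewer cells of a type and less RNA per cell cannot be told apart.

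In Hereford muscle none of the 5 factors passed the test. Calls were made at an adjusted p under 0.05 (limma, Benjamini-Hochberg over all 17061 probes), which 7.14% of all probes passed in this comparison. Ratios of the 5 factors centred near 0, and the 4 bulls lay on both sides of 0 for every one of them. MYOG, the differentiation factor, had log2 ratios of 0.06, -0.91, 0.47 and -0.05 over Limousin bulls 1 to 4. Its mean was -0.11 ± 0.58 (SD, n = 4; 95% interval -0.82 to 0.61; adjusted p = 0.885), and the 4 arrays spread over both directions. MYOD1, the commitment factor, had -0.25, 0.0046, 0.40 and 0.08, a mean of 0.06 ± 0.27 (95% interval -0.70 to 0.82; adjusted p = 0.945). MYF6 had -0.51, -0.55, -0.71 and 0.61, with 3 bulls below Limousin and the bull paired with Limousin bull 4 above it. Its mean was -0.29 ± 0.61 (95% interval -1.09 to 0.51; adjusted p = 0.684). MYF5, the other commitment factor, averaged 0.04 ± 0.18 (adjusted p = 0.837), from -0.14 to 0.27. MEF2A, the MEF2 factor measured here, averaged -0.0032 ± 0.28 (adjusted p = 0.994), with 2 bulls on each side of 0. The intervals and p-values, unlike the SDs, draw on the spread of the Holstein-Friesian arrays too. For MYOD1 the SD was 1.04 there, against 0.27 in Hereford. The intervals leave room for differences of up to 1.09 on the log2 scale in MYF6 and 0.82 in MYOD1 and MYOG, so equality of the breeds was not shown.

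In Holstein-Friesian muscle mean ratios reached -1.13 in MYOG and 1.01 in MYF6, yet 0 of 5 factors passed the adjusted test, against 6.45% of all probes. All 5 had an unadjusted p under 0.05, as did 4011 of the 17061 probes. These p-values and the intervals below draw on the spread of the Hereford arrays too. With the Holstein-Friesian arrays fitted alone (limma), the unadjusted p of MYOD1 was 0.0693, and the other factors had 0.0164 to 0.0404. MYOG had the lowest ratios, -1.74, -1.94, -0.39 and -0.45. All 4 bulls were below their Limousin partner, those set against Limousin bulls 1 and 2 by the most. The mean of -1.13 ± 0.82 (SD, n = 4; 95% interval -1.85 to -0.42) corresponded to a 2.19-fold lower signal, with an adjusted p of 0.0706, and 0.317% of all probes had a lower mean ratio. This value lay close to the threshold, and it passed at 0.0486 when only probes above background in all 16 readings were tested and at 0.0375 on the log ratios of the deposited table. Read in the same dye as Limousin, Cy3, across the 2 slides, MYOG averaged -1.35 (adjusted p = 0.056).

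MYOD1 had ratios of -1.14, -2.11, 0.41 and -0.85 in Holstein-Friesian bulls, 3 below Limousin and 1 above it. The mean was -0.92 ± 1.04 (95% interval -1.68 to -0.17; adjusted p = 0.14), and -0.53 without Limousin bull 2. MYF6 ran the other way in the same bulls, with 0.90, 1.39, -0.25 and 2.00. For both genes the bull set against Limousin bull 3 had the opposite sign to the other 3. MYF6 averaged 1.01 ± 0.95 (95% interval 0.21 to 1.81; adjusted p = 0.127), with median centring 0.38, and 99.1% of all probes had a lower mean ratio. MEF2A had -0.93, -0.15, -0.31 and -0.22, below Limousin in 4 of 4 bulls. Its mean was -0.40 ± 0.36 (adjusted p = 0.147), and the bull set against Limousin bull 1 lay lowest, with a mean of -0.23 without it.

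MYF5 was at the edge of detection. It stood well above background in 4 of 4 Hereford readings and 0 of 4 Holstein-Friesian readings, against 8 of 8 Limousin readings. Fewer probes at large were above background in the Holstein-Friesian channel. Of 21475 non-control probes, 13944 to 14826 were so on an array, against 16639 to 17096 for Limousin on that slide. The measured MYF5 ratios in Holstein-Friesian were -0.23, -0.35, -0.17 and -0.12. Their mean of -0.22 (adjusted p = 0.141) rests on Holstein-Friesian readings not well above background. With loess the measured signal was 1.16-fold higher in Limousin, without a call. That value holds for this normalization alone. The mean was -0.12 read in the same dye and 0.04 with median centring. On the deposited log ratios it was -0.989, with a call (adjusted p = 0.0361). MYF6 and MYF5 are direct neighbours in the RefSeq gene table, with 0 genes between them.

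**Figure D1:**
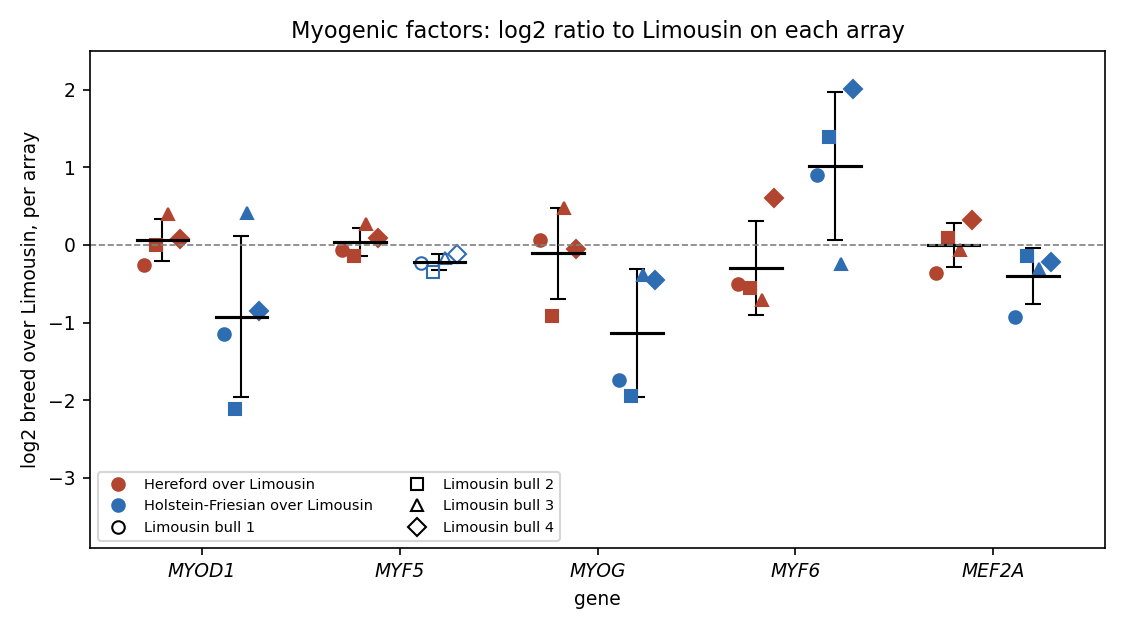
Log2 ratio of the breed over Limousin on each array (vertical axis) for the 5 measured factors, Hereford in red and Holstein-Friesian in blue. Marker shapes give the Limousin bull on the array, open blue MYF5 markers a Holstein-Friesian signal not well above background, and bars the mean ± SD over 4 arrays. All 4 Holstein-Friesian arrays lie below 0 for MYOG, from -1.94 to -0.39, while MYF6 reaches 2.00.

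The channel levels come from the same arrays as the ratios and are no separate evidence. For MYOG the Holstein-Friesian bulls had log2 levels of 9.09, 8.78, 9.84 and 9.60. Every one of them lay below the lowest Hereford bull, 9.93, and below the lowest Limousin reading in either dye, 9.98 in Cy3 and 10.05 in Cy5. This comparison crosses dyes and slides, and MYOG was not called. How many of all probes keep the groups apart in this way was not counted. In ascending order MYOG averaged 9.32 ± 0.48 in Holstein-Friesian, 10.46 ± 0.37 in Limousin Cy5, 10.57 ± 0.67 in Hereford and 10.67 ± 0.51 in Limousin Cy3 (SD, n = 4 each). The last 3 of these did not differ beyond their spread.

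For MYF6 the Holstein-Friesian mean was the highest. Hereford averaged 11.26 ± 0.32 and Holstein-Friesian 12.68 ± 0.80, against 11.55 ± 0.31 in Limousin Cy3 and 11.66 ± 0.34 in Limousin Cy5. Of the Holstein-Friesian bulls, 3 had levels of 12.73, 13.28 and 13.16, above every other reading, and the fourth, at 11.53, lay inside the Limousin range. MYOD1 averaged 12.70 ± 0.41 in Hereford and 11.64 ± 0.57 in Holstein-Friesian, against 12.56 ± 0.48 and 12.64 ± 0.48 in Limousin Cy5 and Cy3. The Holstein-Friesian range for MYOD1, 11.05 to 12.42, overlapped that of both other breeds. MEF2A averaged 10.62 ± 0.12 in Hereford and 10.32 ± 0.20 in Holstein-Friesian, against 10.73 ± 0.20 and 10.62 ± 0.27 in Limousin Cy5 and Cy3. MYF5 stayed between 6.20 and 6.60 in all 16 readings.

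**Figure D2:**
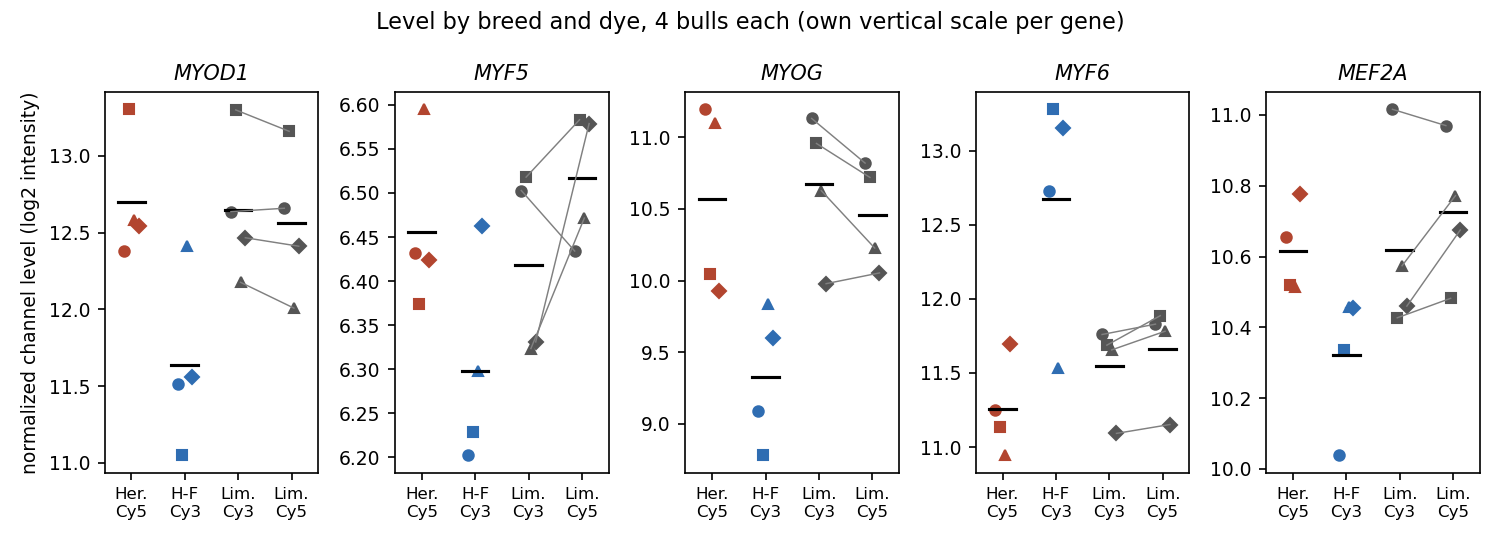
Normalized log2 channel intensity (vertical axis, own scale per gene) of each bull by breed and dye. Grey lines join the same Limousin bull on both slides, marker shapes are the Limousin bull on the array (circle 1, square 2, triangle 3, diamond 4), and bars are means. In the MYOG panel the 4 Holstein-Friesian bulls, read in Cy3, the dimmer channel, lie at 8.78 to 9.84, below all other readings. MYOG was not called, and how many of all probes separate in this way was not counted.

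Limousin bulls differed among themselves in these genes, and their order repeated across slides. For MYOD1 the bulls spanned 1.14 on the log2 scale, from bull 3 to bull 2, whereas 1 bull read in 2 dyes on 2 slides differed by at most 0.168. For MYOG they spanned 0.961, from bull 4 to bull 1, with at most 0.401 within a bull, and for MEF2A 0.538 with at most 0.214. The 4 bulls came in the same order on both slides for MYOD1, MYOG and MEF2A, but not for MYF6 or MYF5. In MYF5 the span between bulls, 0.153, was smaller than the largest difference within 1 bull, 0.248. Limousin in Cy5 minus Limousin in Cy3 did not pass the test for any of the 5 genes, from -0.22 in MYOG to 0.11 in MYF6 (adjusted p = 0.183 to 0.392), while 4.4% of all probes passed it.

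MYOD1, MYF6 and MYOG were among the most variable probes within breeds. Their residual SDs over the 8 arrays were 0.758, 0.799 and 0.713, larger than those of 97.8%, 98.2% and 97.1% of all probes, against a median of 0.23. The SD of MEF2A, 0.324, exceeded that of 70.8% of probes, and that of MYF5, 0.149, exceeded 29.5%. Duplicate spots of MYOD1, MYF6 and MYOG on an array differed by at most 0.079, 0.0953 and 0.136, less than their residual SDs.

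Averaging both marbled breeds for each Limousin bull cancels a dye effect common to both slides. In this mean 0 of 5 factors passed, against 0.598% of all probes, and 3336 probes had an unadjusted p under 0.05. MYOG had -0.84, -1.43, 0.04 and -0.25 for Limousin bulls 1 to 4, a mean of -0.62 ± 0.65 (SD, n = 4; adjusted p = 0.283). Its values were low for bulls 1 and 2 and near 0 for bull 3, and the mean was -0.35 without bull 2. MYOD1 averaged -0.43 ± 0.62 (adjusted p = 0.425), MYF6 0.36 ± 0.74 (adjusted p = 0.595) and MEF2A -0.20 ± 0.31 (adjusted p = 0.483). MYF5 averaged -0.09 ± 0.14 (adjusted p = 0.568). The means of MYOD1, MYF5, MYF6 and MEF2A were closest to 0 at -0.23 and -0.038 without bull 2, 0.046 without bull 4 and -0.055 without bull 1. With the Limousin bull as a replicate block on all 8 arrays, 910 probes were called in this comparison in place of 102, and none was a factor.

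Hereford minus Holstein-Friesian, over the same 4 Limousin bulls, addressed whether the marbled breeds differ from each other. Here a dye effect does not cancel but adds up. None of the 5 factors passed, against 2.71% of all probes, 1.56% higher and 1.15% lower in Hereford. With the replicate block 1714 probes were called in place of 463, again with 0 factors. SDs below are of differences within a Limousin bull, but the intervals and p-values are of an unpaired contrast that leaves the shared bull out. With the block the adjusted p was 0.067 for MYF6, 0.0964 for MYOG and 0.108 to 0.142 for the others. MYF6 differed by -1.41, -1.95, -0.47 and -1.40, lower in Hereford for 4 of 4 Limousin bulls, with a mean of -1.30 ± 0.62 (SD, n = 4; 95% interval -2.43 to -0.18; adjusted p = 0.183). MYOG differed by 1.80, 1.03, 0.86 and 0.41, higher in Hereford for 4 of 4, with a mean of 1.02 ± 0.58 (95% interval 0.013 to 2.03; adjusted p = 0.233). MYOD1 averaged 0.98 ± 0.87 (adjusted p = 0.274), with 3 of 4 above 0. MEF2A averaged 0.40 ± 0.18 (adjusted p = 0.314) and MYF5 0.26 ± 0.13 (adjusted p = 0.237), both with 4 of 4 above 0, MYF5 against Holstein-Friesian readings not well above background. Read in the same dye, MEF2A was at 0.19 and MYF5 at 0.060, while MYOG was at 1.46, MYOD1 at 1.15 and MYF6 at -1.53, all without a call (adjusted p = 0.14 to 0.832).

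Differences between 2 factors on 1 array do not depend on how that array was scaled as a whole. MYF6 minus MYOG was -0.571, 0.363, -1.18 and 0.655 on the Hereford arrays. On the Holstein-Friesian arrays it was 2.64, 3.34, 0.142 and 2.46, so the MYF6 ratio exceeded the MYOG ratio on 4 of 4 arrays, by 2.14 ± 1.39 (SD, n = 4). The Hereford and Holstein-Friesian values overlapped because of the array with Limousin bull 3. MYF6 minus MYOD1 averaged -0.35 ± 0.69 on Hereford arrays and 1.94 ± 1.83 on Holstein-Friesian arrays. MYOG minus MYOD1 averaged -0.17 ± 0.53 in Hereford and -0.21 ± 0.58 in Holstein-Friesian, with 2 of 4 arrays above 0 in each. The pairs were not among the planned comparisons, and MYF6 and MYOG had the highest and lowest mean ratios of the factors in Holstein-Friesian. Such differences restate the ratios given above and are no separate evidence. They were not tested across genes.

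**Figure D3:**
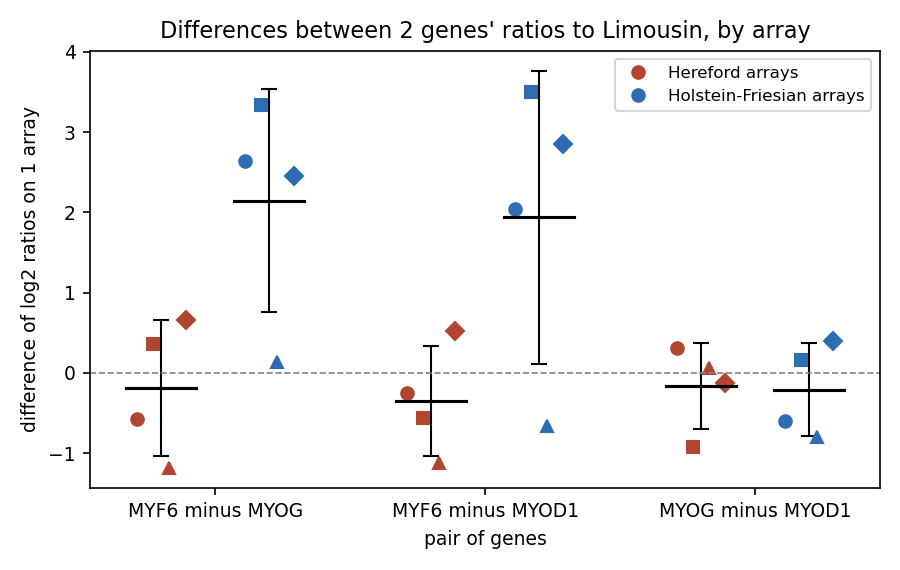
Difference between the log2 ratios of 2 genes on the same array (vertical axis) for Hereford arrays (red) and Holstein-Friesian arrays (blue); marker shapes are the Limousin bulls (circle 1, square 2, triangle 3, diamond 4) and bars the mean ± SD over 4 arrays. MYF6 minus MYOG is 2.46 or more on 3 Holstein-Friesian arrays and 0.142 on the array with Limousin bull 3. These 2 genes had the highest and lowest mean Holstein-Friesian ratios of the factors, and their difference is no separate evidence.

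Genes that act with or on these factors were followed as 8 lists. Of proteins that hold the myogenic factors back, 6 of 16 listed genes were measured, and in Holstein-Friesian muscle 2 rose and 0 fell, where 3% of all probes rose and 3.45% fell. ID1, which sequesters the E-protein partners, rose by 1.95 ± 0.36 (SD, n = 4; adjusted p = 0.00547), and SNAI2, a zinc-finger repressor that binds E-boxes, rose by 1.39 ± 0.52 (adjusted p = 0.00982). Both were higher in 4 of 4 Holstein-Friesian bulls. The list's median log2 ratio was 0.67, beside -0.015 over all probes. In Hereford muscle 0 of the 6 passed, where 3.39% of all probes rose and 3.75% fell, with SNAI2 at 0.54 (adjusted p = 0.135) and HEYL, a Notch-dependent repressor, at 0.74 (adjusted p = 0.14). The median of the list there was 0.32, beside 0.0076 over all probes. SNAI2 also rose in the mean of the marbled breeds, by 0.96 ± 0.25 (adjusted p = 0.0485), the only list gene called there, where 0.322% of all probes rose. That call was lost without any 1 of the 4 Limousin bulls (adjusted p = 0.0667 to 0.195). Hereford minus Holstein-Friesian gave ID1 -1.38 (adjusted p = 0.0556, and 0.0203 with the replicate block) and SNAI2 -0.86 (adjusted p = 0.129), and read in the same dye -0.66 and -0.41 (adjusted p = 0.302 and 0.489).

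TCF3, the E protein measured out of 3 listed, stood at 0.04 in Hereford (adjusted p = 0.814) and at 0.17 in Holstein-Friesian (adjusted p = 0.18). Of 16 upstream regulators of myogenesis 6 were measured and 0 passed in any of the 4 comparisons, and their median was 0.08 in Hereford and -0.013 in Holstein-Friesian. LBX1, a homeobox gene of migrating limb precursors, had the smallest p among them in Hereford, with 0.75 (adjusted p = 0.0662). MEOX2, another homeobox gene, had 0.34 in Hereford (adjusted p = 0.268). PRMT5, an arginine methyltransferase, had 0.20 in Holstein-Friesian (adjusted p = 0.15).

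Of 16 MEF2 cofactors and repressors only CREBBP and HDAC5 were measured, and neither passed in any of the 4 comparisons. HDAC5, a class IIa deacetylase that represses MEF2, had 0.23 in Hereford and -0.38 in Holstein-Friesian (adjusted p = 0.525 and 0.267). CREBBP, an acetyltransferase coactivator, had -0.43 and 0.23 (adjusted p = 0.0728 and 0.31). The difference between the breeds for CREBBP was -0.66 (adjusted p = 0.0838), and 0.0278 with the replicate block.

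Kinases, phosphatases and partners that set MEF2 activity through calcium and p38 were covered better, with 13 of 19 measured. In Hereford 1 rose and 1 fell, where 3.39% of all probes rose and 3.75% fell. MAPK14, the p38 kinase that phosphorylates MEF2, rose by 0.36 ± 0.15 (adjusted p = 0.039). That call was lost under 6 of the other settings that keep every bull (adjusted p = 0.0519 to 0.242). NFATC1, the calcineurin-dependent factor, fell by 0.63 (SD 0.0985; adjusted p = 0.00809, and 0.0577 with median centring), lower in 4 of 4 bulls. In Holstein-Friesian 1 rose and 2 fell, where 3% of all probes rose and 3.45% fell. RCAN1, an inhibitor of calcineurin, rose by 1.62 ± 0.80 (adjusted p = 0.0258, and 0.0655 with median centring). CAMK2D, a calcium/calmodulin-dependent kinase, fell by 0.78 (SD 0.357; adjusted p = 0.0295), and PPP3CB, a catalytic subunit of calcineurin, fell by 0.55 (SD 0.271; adjusted p = 0.0386). The list's medians were 0.04 in Hereford and -0.06 in Holstein-Friesian. Between the breeds CAMK2D (1.19, adjusted p = 0.0401) and PPP3R1, the regulatory subunit of calcineurin (0.98, adjusted p = 0.0357), were higher in Hereford, as were 1.56% of all probes. Read in the same dye, these differences were 0.73 and 0.52, with no call (adjusted p = 0.14 and 0.342). CAMK2D and PPP3CB in Holstein-Friesian over Limousin were not called either in that reading (adjusted p = 0.0879 and 0.0577).

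Of 18 satellite cell markers 8 were measured, and ITGA7, a laminin receptor, alone passed. It fell by 0.36 in Holstein-Friesian (SD 0.0829; adjusted p = 0.0454), where 3.45% of all probes fell and the list's median was 0.02. The call was lost with the deposited log ratios (adjusted p = 0.0877) and among probes above background in all 16 readings (adjusted p = 0.0543). In Hereford 0 of 8 passed, with CD34 at -0.84 (adjusted p = 0.161) and CDH15, or M-cadherin, at -0.27 (adjusted p = 0.291).

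Among 17 genes of early differentiation and fusion, 11 were measured. CHRNA1, the alpha subunit of the muscle acetylcholine receptor, rose by 0.94 ± 0.36 in Hereford (adjusted p = 0.0142) and by 0.70 ± 0.27 in Holstein-Friesian (adjusted p = 0.0319), 2 comparisons that share their Limousin bulls. Read in the same dye the Hereford value was 0.56 (adjusted p = 0.0707), and with median centring the Holstein-Friesian value was 0.24 (adjusted p = 0.38). CHRNG, the gamma subunit of the foetal receptor, fell by 0.84 in Holstein-Friesian (SD 0.237; adjusted p = 0.0314), with 2 of 4 Holstein-Friesian readings above background, and had 0.04 in Hereford (adjusted p = 0.929). No other gene of this list passed in either breed, where 7.14% of all probes passed in Hereford and 6.45% in Holstein-Friesian. The list's medians were 0.04 in Hereford and -0.30 in Holstein-Friesian. The difference between the breeds for CHRNG was 0.88 (adjusted p = 0.096, and 0.0321 with the replicate block).

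Fibre genes known as targets of the myogenic and MEF2 factors were measured for 20 of 30. In Hereford 1 rose and 0 fell, where 3.39% of all probes rose and 3.75% fell. That gene was PPARGC1A, the coactivator of mitochondrial biogenesis, at 1.53 ± 0.76 (adjusted p = 0.0353, and 0.057 with median centring). In Holstein-Friesian 1 rose and 4 fell, where 3% of all probes rose and 3.45% fell. LDB3, a Z-disc protein, fell by 0.88 (SD 0.239; adjusted p = 0.00798). MB, myoglobin, fell by 1.02 (SD 0.356; adjusted p = 0.0167), and TNNC2, the troponin C of fast fibres, fell by 0.68 (SD 0.286; adjusted p = 0.0187). ENO3, the muscle enolase, named after its values were seen to complete the count, fell by 0.59 (adjusted p = 0.0402, and 0.0554 with the replicate block). The gene that rose was NR4A1, an orphan nuclear receptor, at 1.00 ± 0.37 (adjusted p = 0.0233). Median centring in place of loess gave 0.35 for NR4A1 (adjusted p = 0.303).

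The medians over the 20 target genes were 0.10 in Hereford and -0.03 in Holstein-Friesian, beside 0.0076 and -0.015 over all probes. Hereford minus Holstein-Friesian was 1.43 for MB (adjusted p = 0.0341), 1.16 for TNNC2 (adjusted p = 0.0231) and 0.84 for LDB3 (adjusted p = 0.0407), where 1.56% of all probes were called higher. Read in the same dye these differences were 0.50, 0.018 and 0.40, with no call (adjusted p = 0.322, 0.951 and 0.223). In Holstein-Friesian over Limousin the same reading gave -0.56 for MB and -0.11 for TNNC2, also with no call (adjusted p = 0.115 and 0.479), and kept the call for LDB3 at -0.65 (adjusted p = 0.0187).

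**Figure D4:**
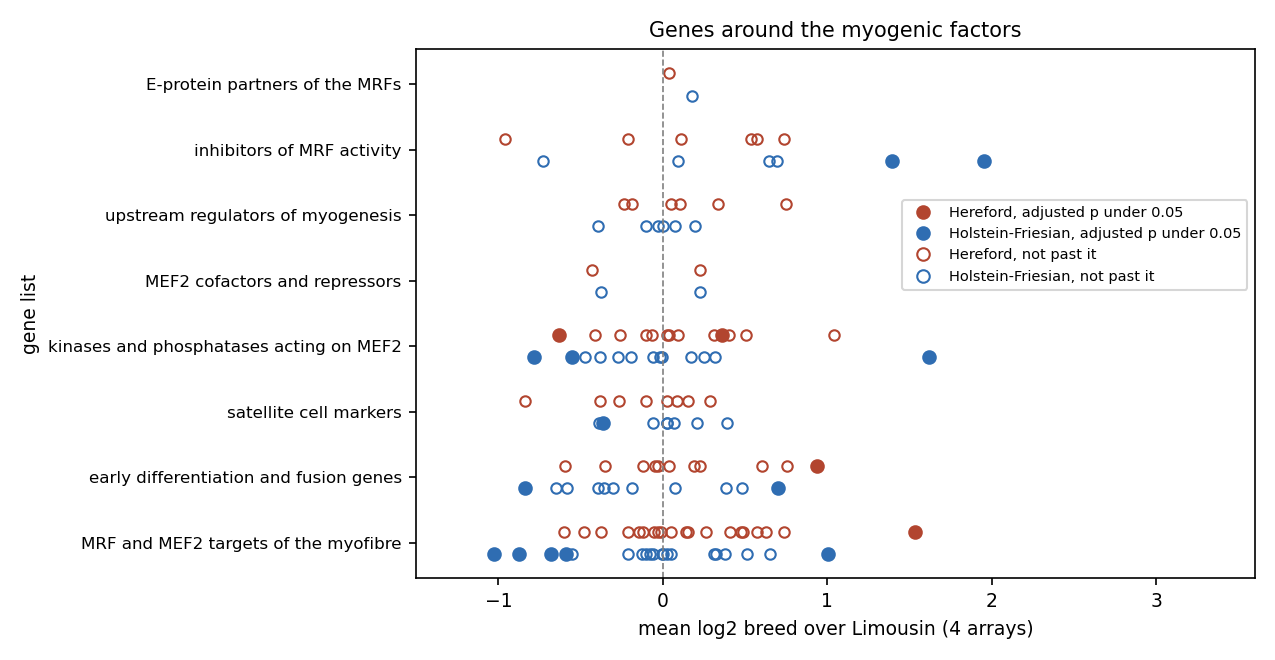
Mean log2 ratio of the breed over Limousin over 4 arrays (horizontal axis) for every measured gene of 8 lists around the myogenic factors (vertical axis), Hereford in red and Holstein-Friesian in blue. Filled points passed an adjusted p of 0.05; the 2 filled blue points at the right of the inhibitor list are SNAI2 at 1.39 and ID1 at 1.95.

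Of the list genes named by the rule for the mean of both marbled breeds, 4 more were called with the replicate block. ID1 was not among them, and its value with the block was not computed. It had 1.26 ± 0.36 in this mean (adjusted p = 0.0505), above 0 for 4 of 4 Limousin bulls. CHRNA1 was at 0.82 (adjusted p = 0.0523, and 0.0135 with the block). NFATC1 was at -0.45 (adjusted p = 0.0558, and 0.00951 with the block). RCAN1 was at 1.33 and NR4A1 at 0.87, with adjusted p-values of 0.0314 and 0.0219 with the block. Many single-gene calls were lost when 1 Limousin bull was left out. Of the 14 list or marker genes called in Holstein-Friesian, 1 kept its call without bull 2, 2 without bull 4, 5 without bull 3 and 7 without bull 1. ID1 passed in each of these (adjusted p = 0.0244 to 0.0449). Of the 6 called in Hereford, 0 kept the call without bull 2 or without bull 4, 2 without bull 3 and 5 without bull 1.

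Markers of other cell types differed between the groups in places. COL3A1, a fibrillar collagen of fibroblasts, fell by 2.53 in Holstein-Friesian (SD 1.14; adjusted p = 0.0125), where 3.45% of all probes fell. It was the only 1 of 6 measured fibroblast markers to pass there, and the list's median was -0.39. The markers did not move together: COL1A1 had -1.14, LUM -0.66 and THY1 -0.12, while PDGFRA had 0.27 and DCN 0.23. The mean level over the 6 fibroblast markers was 10.65 to 11.62 in Holstein-Friesian, against 11.43 to 12.11 in Limousin. The 3 measured macrophage markers had a median of 0.49 in Holstein-Friesian with 0 called, at levels of 7.17 to 8.07, against 6.86 to 7.55 in Limousin. In Hereford the smooth muscle and pericyte genes CNN1 (1.09, adjusted p = 0.0254) and RGS5 (0.77, adjusted p = 0.00816) rose, 2 of 5 measured, where 3.39% of all probes rose. None of the measured adipocyte (5), endothelial (3), nerve (4) or blood (2) markers passed in any of the 4 comparisons. What these other cells contribute to the values of the myogenic factors was not tested.

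Since no factor was called, the genes most like them were looked up only for MYOG, MYF6 and MYOD1, a choice made after their values were seen. Likeness was the mean absolute difference of the log2 ratio over the 8 arrays, among 6641 named genes. MYOG was nearest to ABAT (0.358), CES1 (0.387) and MYOD1 (0.423). MYF6 was nearest to FST, the myostatin antagonist follistatin (0.409), GFRA1 (0.409) and CITED1 (0.478). MYOD1 was nearest to UGP2 (0.332), ABAT (0.355) and SLC1A3 (0.369).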

How the data were processed

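Semitendinosus RNA of 3 breeds, 4 bulls each, was measured on 8 bovine Agilent arrays in 2 colours, and per the submitters' processing notes the scans were quantified in Agilent Feature Extraction 10.7.3.1. Intensity values, medians over the pixels of each spot and of its surroundings, are used as deposited, per the file headers. The deposited value table matched the scanner's own log10 ratio, Cy5 over Cy3, at 44407 of 44407 spots on every array. Other columns used were flags of 0 or 1, per the file headers. Value columns without a sample numbered 0.

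Background was corrected with normexp (offset 50) and each array normalized with loess (span 0.3, controls at weight 0). The Holstein-Friesian arrays were turned to breed over Limousin, as the dyes in the labels give it. Control and outlier spots were left out, and spots of a probe were averaged. Channel levels were taken after Aquantile normalization. Probes were kept where at least 0.5 of their spots were well above background in 4 or more of 16 readings. limma 3.58.1 (lmFit and eBayes, R 4.3.3, statmod 1.5.0, the data.table package (1.17.8), jsonlite 2.0.0; plots with matplotlib 3.10.9) gave p-values, adjusted by Benjamini-Hochberg over 17061 probes. The number of arrays limits the precision. In simulated data on these 17061 probes, 85% of probes changed by 1 on the log2 scale were recovered for Hereford and 85% for Holstein-Friesian, and 99% and 100% of those changed by 2. These shares are for probes at large and do not apply to MYOD1, MYF6 and MYOG, whose spread within breeds was larger than that of most probes.

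Probes were named through a RefSeq gene list of the current cattle assembly, by transcript without version, and 8297 of 21475 matched. The array's own annotation is of another build, so no positions are given. The labels give each Limousin bull 1 number on both slides, and the number pairs the arrays. Deviations of arrays with the same bull correlated at 0.415, 0.273, 0.5 and 0.0987 over probes. Arrays with different bulls gave -0.344 to 0.144, so the value of bull 4, 0.0987, lay within their range. The replicate block is duplicateCorrelation on the bull (consensus correlation 0.305).

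Members and lists were chosen with earlier results of these data known. All members are named. From each list up to 4 called genes with the smallest p are named, or the 2 with the smallest p where none was called; 1 such gene is not reported here. For a called member the 3 most similar genes were to be named. Alternatives were the deposited log ratios, median centring, 2 other filters on dim probes, the mean over a gene's probes, the replicate block, leaving out each bull, fitting each breed alone, and reading breed and Limousin in the same dye.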

Additional observations from a re-analysis of the deposited data

Results flagged for a closer look

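MYF6 in Hereford over Limousin had 1 array far from the other 3. The array with Limousin bull 4 was at 0.6066 on the log2 scale, against -0.51, -0.55 and -0.71 on the others, a gap of 0.844 of the whole range, past Dixon's critical value for 4 arrays. Among 15 sets of 4 values checked it was the only one past this limit, which chance passes in about 1 of 20 sets. Limousin bull 4 also had the lowest MYF6 level of the Limousin bulls, 11.12 over both slides, and the highest Holstein-Friesian ratio, 2.00. Without that bull the Hereford mean was -0.59, again with no call (adjusted p = 0.359).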

How the results depend on the processing

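Median centring in place of loess moved the median of all probes to 0.0991 in Hereford, -0.199 in Holstein-Friesian and 0.358 in their difference. It called 315 probes in Hereford (87% higher, against 47.5% with loess), 6678 in Holstein-Friesian (29% against 46.5%), 950 in the marbled mean (23.1% against 53.9%) and 6219 in the difference (78.1% against 57.5%). With it MYOD1 (-1.567), MYOG (-1.684) and MEF2A (-0.9932) passed in Holstein-Friesian (adjusted p = 0.00797, 0.00532 and 0.00457), and MYOD1 (1.931), MYOG (1.801) and MEF2A (1.211) in the difference. It turned the sign of MYF5 in all 4 comparisons (-0.01466 in Hereford, 0.03991 in Holstein-Friesian, 0.01262 in the mean and -0.05457 in the difference) and, in Hereford, of MYOG (0.1168) and MEF2A (0.2175). It also turned CREBBP (-0.3922) and PRMT5 (-0.4351) in Holstein-Friesian, PRMT5 in the mean (-0.04065), and CREBBP (0.1868) and RB1 (0.2839) in the difference. Of genes called with loess, it lost NR4A1, CHRNA1 and RCAN1 in Holstein-Friesian and PPARGC1A, NFATC1 and MAPK14 in Hereford. The deposited log ratios called 2129 probes in Holstein-Friesian, 438 in the mean and 979 in the difference (67.6% higher), passed MYF5 (-0.989, adjusted p = 0.0361) and MYOG (-1.271) in Holstein-Friesian, and turned MEF2A in Hereford (0.02139). Probes above background in all 16 readings gave 371 calls in the mean and passed MYOG in Holstein-Friesian (-1.131); this filter left MYF5 without a value. No filter gave 42 calls in the mean. The same-dye reading called 683 probes in Hereford and 231 in the difference and turned MYF5 (-0.06084), MYOG (0.1113) and HDAC5 (-0.1009) in Hereford and HDAC5 in the difference (-0.05067). Hereford arrays alone gave 27 calls and kept 0 of the 6 list or marker genes called there; Holstein-Friesian arrays alone kept 11 of 14. The replicate block gave 910 calls in the mean and 1714 in the difference. Beside the calls given above, it changed none of the factors or of the genes named by the rule for each comparison. The cause of these changes was not tested.

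Leaving out 1 Limousin bull with its arrays gave 30 to 1055 calls in Hereford, 78 to 810 in Holstein-Friesian, 0 to 1 in the mean and 0 to 457 in the difference, with at least 2217 probes at an unadjusted p under 0.05 in each (limma). No factor passed in any of these fits. In the difference MYOD1 ran from 0.6049 (without bull 2) to 1.311. In Hereford MYOD1 ran from -0.05675 to 0.1617, MYF5 from -0.04086 to 0.09771, MYOG from -0.3 to 0.1615 and MEF2A from -0.1097 to 0.1165, with MEF2A at 0.1165 without bull 1 and 0.01575 without bull 3. TCF3 in Hereford (-0.04291 to 0.07906, below 0 without bull 1) and HDAC5 in the mean (-0.1878 to 0.08472, above 0 without bull 3) changed sign. Over all settings that keep every bull, 123 values of the 5 factors kept their direction and side of the threshold, 9 turned and 9 came to pass. The 123 include values that could not change, since the mean over a factor's probes repeats its 1 probe. The filters on dim probes, the replicate block and fitting each breed alone could change p, but not the mean ratio. The count is therefore no measure of stability. Signal limits MYF5 in Holstein-Friesian, which was not well above background there.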
